A study of Mus musculus with 2 samples.

Results

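Several steps of glycolysis can be carried by alternative enzymes, called isozymes, that are encoded by separate genes and used by different tissues. The genes described here are 10 isozyme genes of 4 glycolytic enzymes in ESREs (Extensively Self-Renewing Erythroblasts) of the mouse, cultured precursors of red cells that are able to divide for a long time without maturing. They were taken by gene symbol from a table of 25791 gene rows, and all 10 had a row. Hexokinase is represented by Hk1, Hk2 and Hk3, phosphofructokinase by Pfkl, Pfkm and Pfkp, aldolase by Aldoa and Aldoc, and pyruvate kinase by Pkm2 and Pklr. The set was chosen with the level of these genes in both groups known, so every level, fold and share below is a description and carries no test.

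In the maturation group, ESREs had been matured for 1 day, and in the expansion group they were kept proliferating. Both were on a C57/bl6 background, and the title of the series names transgenic β-Yac mice as their origin. The table gives 1 FPKM value per gene and group (fragments scaled by transcript length and by the size of the library), although the design text speaks of duplicates. No spread between replicates, read depth or p-value is therefore available, and all comparisons below lack a replicate check.

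Glycolysis turns glucose into pyruvate, and it is the route by which mature red cells, which have no mitochondria, make ATP. Hexokinase traps glucose in the cell, phosphofructokinase commits it to the pathway, aldolase splits the sugar in the middle, and pyruvate kinase makes ATP and pyruvate in the final step. Hexokinase, phosphofructokinase and pyruvate kinase catalyse the effectively irreversible steps, and aldolase a reversible one. Pyruvate kinase has 2 genes in mammals. Pkm, listed in the table under its older name Pkm2, gives the M1 and M2 forms by alternative splicing and is used by most dividing cells, while Pklr gives the liver form and the red cell form from alternative start sites. Inherited lack of the red cell form is a known cause of hemolytic anemia in humans.

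The start regions of the pyruvate kinase genes are shown because these genes stood in opposite directions in the data. Each line gives the 250 bases before an annotated start from RefSeq on GRCm38.p6, plus strand, 5′ to 3′. Capitals mark matches to GATAA, a word recognised by GATA factors, or to CCNCNCCCN, a pattern recognised by Krüppel-like factors such as Klf1, each searched on both strands.
Pklr, upstream start: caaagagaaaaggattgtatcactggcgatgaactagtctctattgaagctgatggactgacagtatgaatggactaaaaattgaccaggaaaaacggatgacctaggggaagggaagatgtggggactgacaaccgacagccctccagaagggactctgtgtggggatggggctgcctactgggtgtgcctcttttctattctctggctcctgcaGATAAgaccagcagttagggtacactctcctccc
Pklr, downstream start: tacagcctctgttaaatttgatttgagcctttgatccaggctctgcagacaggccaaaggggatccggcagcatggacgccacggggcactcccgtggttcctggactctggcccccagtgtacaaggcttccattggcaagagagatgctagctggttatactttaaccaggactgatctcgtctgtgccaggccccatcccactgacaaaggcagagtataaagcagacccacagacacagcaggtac
Pkm, first start: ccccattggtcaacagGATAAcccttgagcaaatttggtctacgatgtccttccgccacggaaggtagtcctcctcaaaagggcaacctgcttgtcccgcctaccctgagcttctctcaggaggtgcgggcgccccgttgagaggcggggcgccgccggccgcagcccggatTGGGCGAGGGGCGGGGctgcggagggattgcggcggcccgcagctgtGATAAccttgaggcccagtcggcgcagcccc
The upstream Pklr start, at chr3:89135892-89136141, held 1 match to GATAA, beginning 34 bases before the start, and no match to CCNCNCCCN. The second start lies 481 bases downstream, with its window at chr3:89136373-89136622, and held neither pattern. The first Pkm start, at chr9:59656326-59656575, held 2 matches to GATAA, beginning 234 and 31 bases before the start, and 2 matches to CCNCNCCCN that overlap each other. A further Pkm start held 11 overlapping matches to CCNCNCCCN and none to GATAA, and is not shown. Over all 32851 RefSeq start windows of this length, 22.6% held GATAA and 45.8% held CCNCNCCCN. Of 19 annotated starts of the 10 genes, 7 held GATAA and 12 held CCNCNCCCN. Some of these windows overlap, as at Pfkm and Aldoa, so the same match can be counted for several starts. Nothing is read from these counts. The table has 1 value per gene, so which start or which splice form the fragments came from was not measured.

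The pyruvate kinase genes stood in opposite order in the groups. Pklr stood at 38.2 FPKM in maturation, against 8.79 FPKM in expansion, and was 4.35-fold higher. Pkm2 stood at 6.01 FPKM in maturation, against 35.1 FPKM in expansion, and was 5.84-fold lower. Pklr was therefore the more abundant pyruvate kinase RNA in the maturation group and Pkm2 in the expansion group. Within the enzyme's summed FPKM, Pklr held 86.4% in maturation and 20.03% in expansion, and Pkm2 held 13.6% in maturation and 80.0% in expansion. The Pklr to Pkm2 ratio was 6.37 in maturation and 0.251 in expansion, a 25.4-fold difference.

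The sum of both genes hardly differed, at 44.3 FPKM in maturation and 43.9 FPKM in expansion. Pklr was higher by 29.5 FPKM and Pkm2 was lower by 29.1 FPKM in absolute terms. FPKM is a level per transcript length, so the exchange was close to one transcript for another on this scale. Shares and ratios within an enzyme do not depend on how the libraries were scaled, but the comparison of sums does. With log2 ratios centred on the median of all expressed rows (-0.25), the pyruvate kinase sum stood at 0.26 above that median.

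**Figure D1:**
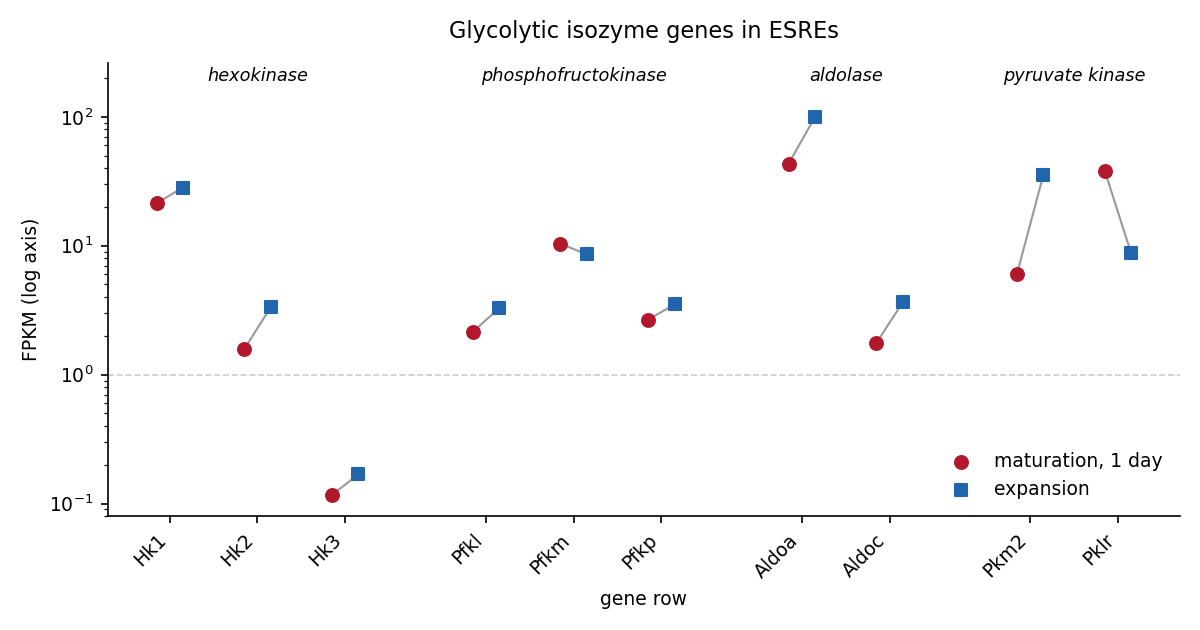
Level of each isozyme gene in FPKM (log axis), with maturation as circles and expansion as squares, 1 deposited value per group and no error bar. Pklr was at 38.2 FPKM in maturation and 8.79 FPKM in expansion, Pkm2 was at 6.01 FPKM in maturation and 35.1 FPKM in expansion, and Hk3 lies under the dashed line at 1 FPKM in both groups.

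Pklr is listed on chromosome 3 (mm9 88940064 to 88950516) with no other row at its locus. Pkm2 is listed on chromosome 9 (mm9 59504415 to 59547073), a span shared with 4933407I18Rik and LOC100504435. LOC100504435 was listed at 0 FPKM in maturation and 11.3 FPKM in expansion, and it has no name in the annotation used here. With that row added to Pkm2, the Pklr share was 86.4% in maturation and 15.9% in expansion. The pyruvate kinase sum then had a log2 ratio of -0.31 in place of 0.01, so the near-equal exchange holds only without that row.

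In the GENCODE transcripts (release M21, GRCm38), the aligned coding bases of Pkm and Pklr were 69.9% identical. The stretch below shows bases 301 to 375 of the Pkm coding sequence and the aligned bases 430 to 504 of Pklr, with capitals for the 26 bases at which Pklr differs.
Pkm: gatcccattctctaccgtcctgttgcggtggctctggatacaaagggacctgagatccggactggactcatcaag
Pklr: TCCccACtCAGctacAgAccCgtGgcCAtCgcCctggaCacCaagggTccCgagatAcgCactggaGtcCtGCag
No window of 36 bases was identical between the genes, and 0.472% of the windows of Pklr matched Pkm within 2 mismatches. At 50 bases no window matched within 2 mismatches. The length of the reads is unknown.

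Both genes lay near the ends of the distribution of all 9263 expressed rows, that is, rows with at least 1 FPKM in a group. On the log2(FPKM + 1) scale the ratio of maturation over expansion was 2.004 for Pklr, with 99.0% of expressed rows lower, and -2.36 for Pkm2, with 0.529% lower. Over the 10 genes, 9 were expressed, 1 was at least 2-fold higher on this scale (Pklr) and 2 at least 2-fold lower (Pkm2 and Aldoa). The background of all expressed rows was 3.13% higher (290 rows) and 6.70% lower (621 rows) by this rule, 9.83% in all. After centring, 420 rows were higher and 363 lower. The set was chosen from this same contrast, so nothing is read from its counts. The median log2 ratio was -0.44 over the 9 expressed genes.

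**Figure D2:**
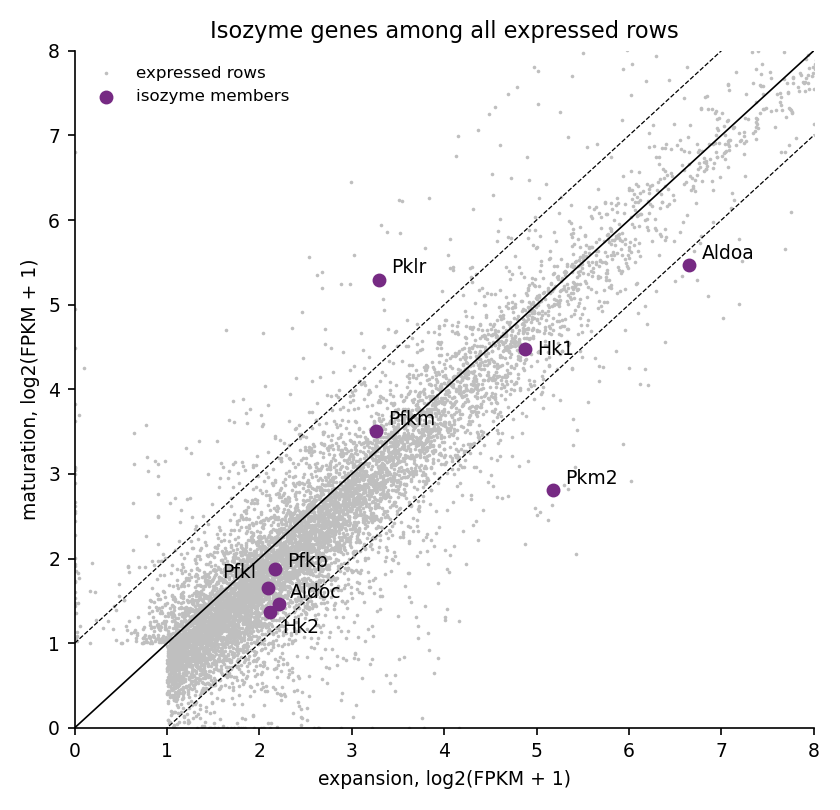
Log2(FPKM + 1) in maturation against expansion for expressed rows (grey) and the 9 expressed isozyme genes (purple), with lines for equality (solid) and 2-fold (dashed); rows beyond the axis limits are not drawn. Pklr lies above the upper dashed line, Pkm2 and Aldoa below the lower one, and the other 6 between them.

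The rows whose pair of values lay closest to Pklr, by distance on the log2(FPKM + 1) scale over the 2 groups, were Tspan33, Hebp1 and Cda. Tspan33, a tetraspanin of erythroid cells, was at 32.4 FPKM in maturation and 9.10 FPKM in expansion. Hebp1, a heme-binding protein, was at 36.7 FPKM in maturation and 6.91 FPKM in expansion. Cda, cytidine deaminase, was at 29.8 FPKM in maturation and 9.16 FPKM in expansion. Closest to Pkm2 were LOC100503054, Spn and Ng23. Spn, which encodes the leukocyte surface sialoglycoprotein CD43, was at 6.08 FPKM in maturation and 39.6 FPKM in expansion. With 2 values per row, such likeness says only that level and fold were similar.

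Phosphofructokinase had the same leading gene in both groups, with a larger share in maturation. Pfkm, the muscle-type subunit, which in human red cells combines with the liver-type subunit, stood at 10.4 FPKM in maturation and 8.56 FPKM in expansion (1.21-fold higher). Pfkl, the liver-type subunit, stood at 2.14 FPKM in maturation and 3.26 FPKM in expansion (1.52-fold lower). Pfkp, the platelet-type subunit, stood at 2.68 FPKM in maturation and 3.50 FPKM in expansion (1.31-fold lower). Besides Pklr, Pfkm was the other gene of the 10 with a higher value in maturation, although all 3 genes lay within 2-fold.

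The Pfkm share was 68.3% in maturation and 55.9% in expansion, a difference of 12.4 points. Both other subunits held smaller shares in maturation. Pfkl held 14.1% in maturation and 21.3% in expansion, and Pfkp held 17.6% in maturation and 22.9% in expansion. As with pyruvate kinase, the enzyme's sum hardly differed, at 15.2 FPKM in maturation and 15.3 FPKM in expansion. The sum was 0.24 above the median of expressed rows after centring. The Pfkm locus on chromosome 15 (mm9 97871660 to 97962878) is shared with Senp1, at 2.55 FPKM in maturation and 2.82 FPKM in expansion. The Pfkp locus on chromosome 13 (mm9 6547403 to 6647970) is shared with Pitrm1, at 14.8 FPKM in maturation and 17.6 FPKM in expansion.

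Hexokinase was almost entirely Hk1 in both groups. Hk1, the broadly used form that also supplies red cells, stood at 21.3 FPKM in maturation and 28.2 FPKM in expansion (1.33-fold lower). Hk2, the form raised by growth signals and low oxygen in many cells, stood at 1.58 FPKM in maturation and 3.33 FPKM in expansion (2.11-fold lower). Hk3, a form of myeloid cells, stood at 0.117 FPKM in maturation and 0.168 FPKM in expansion, under the 1 FPKM minimum in both groups. Hk2 lies past 2-fold as a ratio of FPKM values and within 2-fold on the log2(FPKM + 1) scale (-0.75).

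The Hk1 share was 92.6% in maturation and 89.0% in expansion, and the Hk2 share was 6.86% in maturation and 10.5% in expansion. Hk3 held 0.509% in maturation and 0.530% in expansion. The sum was 23.0 FPKM in maturation and 31.7 FPKM in expansion, 1.38-fold lower. Hk1 is listed on chromosome 10 (mm9 61731603 to 61842656) and Hk2 on chromosome 6 (mm9 82675019 to 82724448). Hkdc1, a hexokinase-like gene beside Hk1 that was outside the set, was at 2.18 FPKM in maturation and 3.12 FPKM in expansion. With Hkdc1 in the sum, Hk1 held 84.6% in maturation and 81.03% in expansion.

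**Figure D3:**
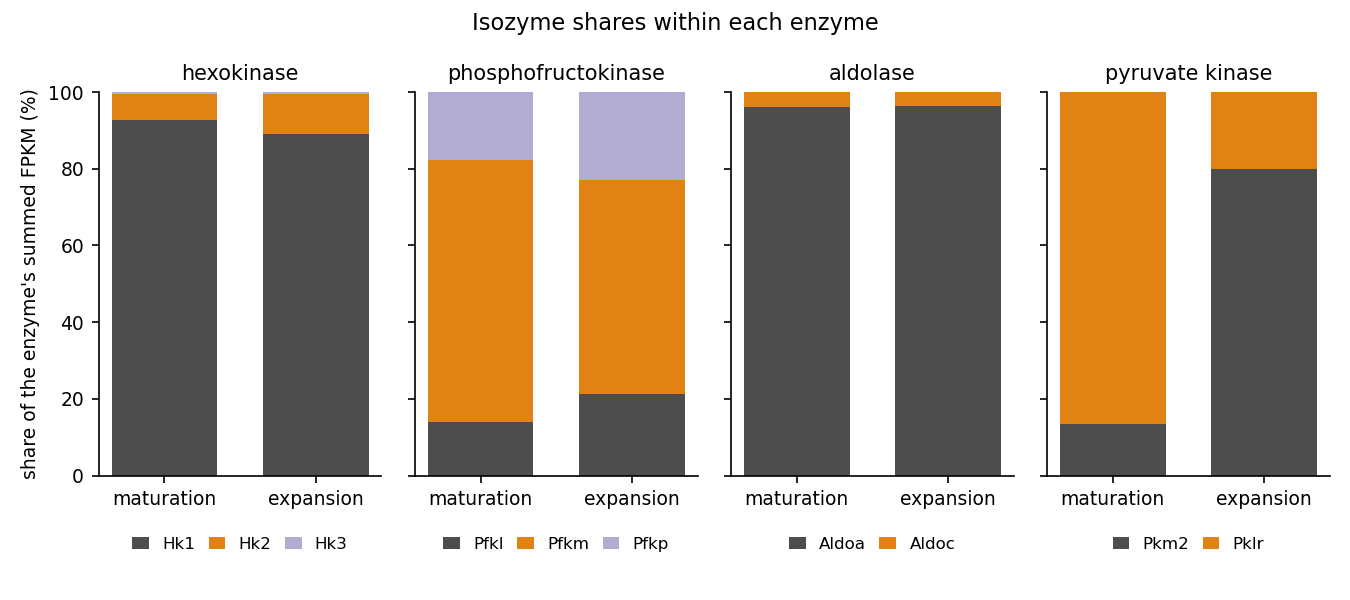
Share of each isozyme gene in the summed FPKM of its enzyme, in percent, with maturation left and expansion right in each panel. Pklr held 86.4% of pyruvate kinase in maturation and 20.03% in expansion, while the leading gene of each other enzyme was the same in both groups.

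Aldolase was lower as a whole, and its isozyme shares were nearly the same in both groups. Aldoa, the aldolase of muscle and red cells, stood at 43.2 FPKM in maturation and 99.6 FPKM in expansion (2.30-fold lower). Aldoc, the form best known from brain, stood at 1.76 FPKM in maturation and 3.64 FPKM in expansion (2.07-fold lower). The Aldoa share was 96.1% in maturation and 96.5% in expansion, a difference of 0.377 points. The sum was 45.01 FPKM in maturation and 103 FPKM in expansion. After centring on the median of expressed rows the log2 ratio of Aldoa was -0.94, no longer past 2-fold.

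Rows of the aldolase retrogenes Aldoart1 and Aldoart2, intronless copies of Aldoa known for expression in testis, held values close to those of Aldoa. Aldoart1 was at 34.7 FPKM in maturation and 77.6 FPKM in expansion. Aldoart2 was at 37.9 FPKM in maturation and 89.2 FPKM in expansion. Aldoart1 equalled 80.2% of Aldoa in maturation and 77.9% in expansion, and Aldoart2 87.5% in maturation and 89.5% in expansion. With both retrogenes in the sum, Aldoa held 36.8% in maturation and 36.9% in expansion.

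The stretch below is shown because near-identical genes can share fragments. It gives bases 301 to 375 of the Aldoa coding sequence and the aligned bases of the other genes (304 to 378 of Aldoart1, 139 to 213 of Aldoart2 and of Aldoc), with capitals for differences from Aldoa.
Aldoa: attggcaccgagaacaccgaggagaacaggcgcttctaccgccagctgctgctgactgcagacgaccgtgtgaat
Aldoart1: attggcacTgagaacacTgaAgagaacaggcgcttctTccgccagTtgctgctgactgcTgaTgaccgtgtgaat
Aldoart2: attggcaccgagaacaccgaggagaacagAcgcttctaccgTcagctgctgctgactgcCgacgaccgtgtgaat
Aldoc: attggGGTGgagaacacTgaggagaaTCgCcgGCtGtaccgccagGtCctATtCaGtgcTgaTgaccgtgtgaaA
Aldoart1 differed from Aldoa at 7 bases here, Aldoart2 at 3 and Aldoc at 20. Over the aligned coding bases Aldoart1 was 93.9% identical to Aldoa, Aldoart2 91.7% and Aldoc 75.7%. Within 2 mismatches, 37.5% of the 36-base windows of Aldoart1 and 32.1% of those of Aldoart2 matched Aldoa, against 0.218% of those of Aldoc. At 75 bases these were 12.03% for Aldoart1, 4.92% for Aldoart2 and 0% for Aldoc. The part that shared fragments play in the retrogene rows was not tested. Without mismatches, 8.23% of the 36-base windows of Aldoart1 and 3.08% of those of Aldoart2 matched Aldoa. How fragments were divided among these rows is unknown, so the level of Aldoa is uncertain. Aldoa was 2.30-fold lower, Aldoart1 2.24-fold and Aldoart2 2.36-fold. Because the rows may share fragments, these like ratios are no separate check on the Aldoa ratio.

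Ordered by FPKM in maturation, the genes ran Aldoa, Pklr, Hk1, Pfkm, Pkm2, Pfkp, Pfkl, Aldoc, Hk2 and Hk3. In expansion the order was Aldoa, Pkm2, Hk1, Pklr, Pfkm, Aldoc, Pfkp, Hk2, Pfkl and Hk3. With 1 value per group, which neighbours in these orders differ beyond their spread is unknown. Pfkl, Pfkp, Hk2 and Aldoc lay between 3.26 and 3.64 FPKM in expansion.

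The balance between the enzymes differed with these sums. Summed pyruvate kinase equalled 0.983 of summed aldolase in maturation and 0.425 in expansion, and summed phosphofructokinase 0.338 of aldolase in maturation and 0.148 in expansion. Pyruvate kinase stood at 2.91 times phosphofructokinase in maturation and 2.86 times in expansion. Hexokinase equalled 0.520 of pyruvate kinase in maturation and 0.723 in expansion.

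The other steps of the pathway mostly stood lower. Of 16 listed genes of the other glycolytic steps, lactate and bisphosphoglycerate, 12 were expressed. On the log2(FPKM + 1) scale 7 of these stood lower by 2-fold or more and 0 stood higher by that much, beside 6.70% lower and 3.13% higher over all expressed rows. After centring, 5 were lower by that much. The median log2 ratio of the 12 expressed genes was -1.12, against -0.25 over all expressed rows. The 7 as deposited included Pgk2 and Pgam2, rows that kept a near-constant proportion to Pgk1 and Pgam1, for a reason not tested. Of the 7 genes Gpi1, Tpi1, Gapdh, Pgk1, Pgam1, Eno1 and Ldha, 5 were at least 2-fold lower. Besides Pgk2 and Pgam2, these 7 leave out the expressed genes Eno3, Bpgm and Minpp1. Their log2 ratios were -0.79, 0.04 and 0.32, all within 2-fold, with Bpgm and Minpp1 higher in maturation. Pgam1, a phosphoglycerate mutase, was at 7.53 FPKM in maturation and 27.0 FPKM in expansion. Eno1, enolase, was at 21.0 FPKM in maturation and 57.1 FPKM in expansion. Gpi1, which makes the substrate of phosphofructokinase, was at 13.7 FPKM in maturation and 37.1 FPKM in expansion.

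Ldha, which turns pyruvate into lactate, was at 38.1 FPKM in maturation and 106 FPKM in expansion. Gapdh and Tpi1 were lower by less, 1.45-fold and 1.56-fold. Bpgm, which makes the bisphosphoglycerate that lowers the oxygen affinity of hemoglobin, was at 2.94 FPKM in maturation and 2.84 FPKM in expansion. Minpp1, a phosphatase that can remove bisphosphoglycerate, was at 13.6 FPKM in maturation and 10.7 FPKM in expansion. Among the enzymes of glucose breakdown, phosphofructokinase and pyruvate kinase thus had nearly equal sums in the groups as deposited. After centring, the log2 ratios of these sums were 0.24 and 0.26, and that of the hexokinase sum was -0.20. With LOC100504435 added to Pkm2, the pyruvate kinase sum had a log2 ratio of -0.31 as deposited. The genes Gpi1, Aldoa, Pgk1, Pgam1 and Eno1 were each at least 2-fold lower as deposited, with Aldoa and Pgk1 within 2-fold after centring.

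**Figure D4:**
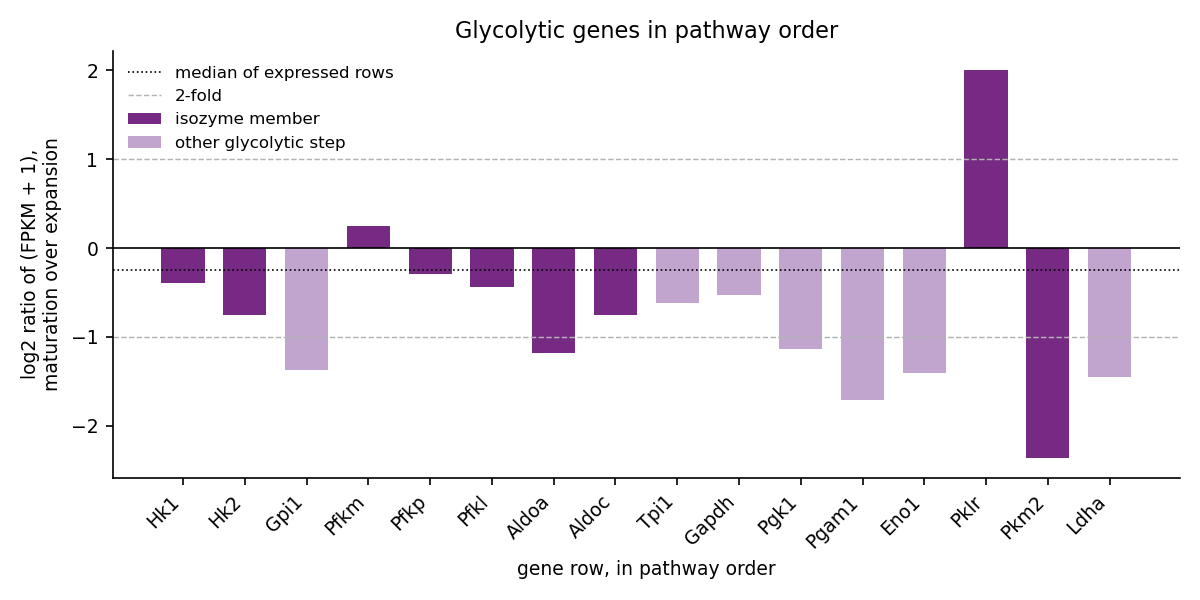
Log2 ratio of (FPKM + 1), maturation over expansion, for isozyme genes (dark) and other glycolytic genes (light) in pathway order, with lines at 0, at the median of expressed rows (-0.25) and at 2-fold. Pklr at 2.004 and Pfkm at 0.25 are the bars above 0, and Pkm2 at -2.36 is the lowest.

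The exchange in pyruvate kinase can be set beside 14 other families of isozymes or related carriers, of which 13 had an expressed row. Measured as the share points that passed from one gene to another, pyruvate kinase stood at 66.4 points, phosphofructokinase at 12.4, hexokinase at 3.65 and aldolase at 0.377. The 13 families had a median of 2.88 points, and 3 of them reached 10 points. The widest was 5-aminolevulinate synthase, the first enzyme of heme synthesis, at 47.5 points. Its erythroid gene Alas2 held 86.3% in maturation and 38.7% in expansion, with Alas1 making up the rest. This was a difference of 1 gene more than an exchange, since Alas2 was at 7.89 FPKM in maturation and 0.975 FPKM in expansion, and Alas1 at 1.25 FPKM in maturation and 1.54 FPKM in expansion. The expansion values of both lie near the 1 FPKM minimum.

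The kinases and phosphatases that set the activator of phosphofructokinase (the Pfkfb family) followed at 23.1 points. These were low rows, with Pfkfb2 at 1.46 FPKM in maturation and 1.18 FPKM in expansion and the others under 1 FPKM. Acetyl-CoA synthetase stood at 10.7 points. The lactate dehydrogenase, enolase, phosphoglycerate kinase and phosphoglycerate mutase families each moved by at most 1.57 points. The leading gene differed between the groups in Alas and in acetyl-CoA synthetase, 2 of the 13 families. These are single values per gene, and no test of the difference between families was possible.

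Splicing factors known to act on Pkm all lay within 2-fold. All 6 listed were expressed, with a median log2 ratio of -0.06. Ptbp1, which favours the M2 form, was at 30.8 FPKM in maturation and 33.9 FPKM in expansion. Hnrnpa1 was at 87.6 FPKM in maturation and 104 FPKM in expansion, and Sfrs3 (Srsf3) at 41.1 FPKM in maturation and 38.7 FPKM in expansion. The widest difference was that of Nek2, a mitotic kinase, at 4.75 FPKM in maturation and 3.05 FPKM in expansion (1.56-fold higher). Whether the M1 to M2 proportion differed was not measured.

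Of 11 listed transcription factors known for glycolytic or erythroid genes, 9 were expressed. On the log2(FPKM + 1) scale 2 of these were higher by 2-fold or more and 0 lower by that much, beside 3.13% higher and 6.70% lower over all expressed rows. Klf1, an erythroid activator, was at 42.7 FPKM in maturation and 18.7 FPKM in expansion. Tal1 was at 21.1 FPKM in maturation and 7.67 FPKM in expansion, and Gata1 at 37.4 FPKM in maturation and 18.8 FPKM in expansion. Myc, an activator of many glycolytic genes, was at 8.84 FPKM in maturation and 17.1 FPKM in expansion. Hif1a, the oxygen-regulated factor, was at 1.12 FPKM in maturation and 2.80 FPKM in expansion. As ratios of FPKM values Hif1a was 2.51-fold lower and Mlxip, a glucose-sensing factor, 2.36-fold lower, both from low levels. No link between a factor and an isozyme was tested.

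Pkm2 is used by many cell types, and most expressed markers of mast cells and megakaryocytes stood lower in the same direction. In the other marker lists, expressed markers were higher, or lower by less than 2-fold on the log2(FPKM + 1) scale. The rest were near 0. The 6 mast cell and basophil markers summed to 2.43 FPKM in maturation and 24.6 FPKM in expansion, with 4 expressed and all 4 at least 2-fold lower. Their single values ran between 0 and 1.64 FPKM in maturation and between 0 and 8.92 FPKM in expansion, and Mcpt8 was listed at 0 in both. The 6 megakaryocyte and platelet markers summed to 4.13 FPKM in maturation and 22.8 FPKM in expansion, with 4 expressed and 3 at least 2-fold lower. The fourth, Gp9, was higher, at 1.84 FPKM in maturation and 0.756 FPKM in expansion. Over all expressed rows, 6.70% were at least 2-fold lower and 3.13% at least 2-fold higher on the log2(FPKM + 1) scale. The 6 ran between 0 FPKM (Pf4) and 1.84 FPKM in maturation and between 0.00520 and 9.63 FPKM in expansion. Of 5 macrophage markers with a row, 1 was expressed and 0 lay past 2-fold on the log2(FPKM + 1) scale. The expressed one, Cd68, was at 0.539 FPKM in maturation and 1.18 FPKM in expansion. It was more than 2-fold lower as a ratio of FPKM values, and its log2 ratio was -0.50. The 6 granulocyte markers summed to 0.0372 FPKM in maturation and 0.0170 FPKM in expansion, with 0 expressed. Of 5 neuron and glia markers with a row, 1 was expressed, Gfap, at 2.91 FPKM in maturation and 0.920 FPKM in expansion. The part of such cells or programs in the lower Pkm2 value was not tested, and fewer cells of a type cannot be told apart from less RNA per cell in these bulk samples.

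The markers of hepatocytes, another cell type known for Pklr, summed to 0.0440 FPKM in maturation and 0.0716 FPKM in expansion, and 0 of 5 reached 1 FPKM. The 8 erythroid markers were all expressed, as the cell type label implies. On the log2(FPKM + 1) scale 6 were at least 2-fold higher in maturation and 0 lower by that much. Over all expressed rows, 3.13% were higher and 6.70% lower by this rule. Of 6 skeletal muscle markers 1 reached 1 FPKM, the actin gene Acta1, at 52.1 FPKM in maturation and 67.9 FPKM in expansion. The 5 others reached at most 0.117 FPKM in maturation and 0.153 FPKM in expansion.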

How the data were processed

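RNA of ESREs in maturation and expansion was sequenced, with 1 sample per group in the labels. The authors deposited FPKM values, with 1 column for each group according to the header of the table. The submitters' processing notes name mm9 as the build and Cuffdiff 2.0.2 as a tool. Aligner, annotation, read length and the handling of duplicates: not given in the sources used here. Depth is unknown, so no interval could be given, and FPKM of near-identical genes depends on how the authors' software divided shared fragments. The table lists 9263 of 25791 rows with at least 1 FPKM in a group, called expressed here. Log2 ratios were taken of FPKM + 1, a pseudocount that understates differences of low genes, and at least 2-fold means an absolute log2 ratio of at least 1. Folds are ratios of FPKM values, and a share is the FPKM of a gene in the sum of its enzyme's listed genes. With 1 value per group no test was made. The genes, the other 7 gene lists and the 8 marker lists were chosen with earlier results of these data known. All 10 isozyme genes are named, and other genes come from these lists or are the 3 rows nearest to Pklr and to Pkm2; among the 78 entries looked up, Tigar, Mpc1, Mpc2 and Srsf3 were matched by RefSeq synonym. Start positions are given counted from 1. Among microRNA rows whose span lay within 1 base of their RefSeq length, 175 of 175 equalled it when counted from 0. Rows further off were left out of this comparison. Promoters are RefSeq (GRCm38.p6) and transcripts GENCODE M21, and neither was used for mm9 coordinates. Python 3.11.15 and pandas 2.3.3 were used. A few genes first listed are not reported here and were taken out of every list and sum. Alternatives were other pseudocounts, thresholds, filters, scalings and sums.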

Additional observations from a re-analysis of the deposited data

How the results depend on the processing

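Over 64 results and 170 alternative values, 0 changed direction past the 2-fold threshold. Of these values 150 stayed on their side of the threshold, within 1.5 times for counts, within 5 points for shares or within 0.25 for medians. Some of the 150 were fixed in advance. A row past 2-fold on the log2(FPKM + 1) scale has at least 1 FPKM in a group, so counts without a filter could not differ. Centring takes the same value (-0.247) from each list median, inside the 0.25 allowed. The tally is therefore no measure of how firm the results are. Every alternative run left Pklr at least 2-fold higher, Pkm2 at least 2-fold lower and their shares within 5 points. With a pseudocount of 0.1, Hk2 had a log2 ratio of -1.03 and Aldoc of -1.01, past 2-fold, and 4 genes were at least 2-fold lower in place of 2. Centred on the median of expressed rows, Aldoa stood at -0.94 and the aldolase sum at -0.93, 1 gene was at least 2-fold lower, and 363 of all expressed rows were at least 2-fold lower in place of 621. A threshold of 1.5-fold gave 4 genes lower and one of 3-fold gave 1. All expressed rows were not counted at these thresholds or at a pseudocount of 0.1, so nothing is read from these counts. With Hkdc1 and the aldolase retrogenes added to the sums, Hk1 held 84.6% in maturation and 81.03% in expansion, and Aldoa 36.8% in maturation and 36.9% in expansion. With no filter the median of the other glycolytic steps was -0.70 in place of -1.12, and a minimum of 5 FPKM left 349 rows at least 2-fold lower. Adding these rows, adding LOC100504435 to Pkm2, and centring or rescaling the sums, were chosen after the data were seen. No paired analysis was possible because the table has 1 value per group, and for the same reason no replicate could be left out. Unknown depth limits the rows under 1 FPKM, among them Hk3 and most Pfkfb rows.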

Other observations

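Genes on either side of the isozyme steps differed in both directions. Slc2a3, a neuronal and leukocyte glucose carrier, was at 3.72 FPKM in maturation and 9.46 FPKM in expansion (2.54-fold lower). The more widely known carrier Slc2a1 was at 0.439 FPKM in maturation and 1.14 FPKM in expansion (2.61-fold lower). These Slc2a1 values lie near or under the 1 FPKM minimum, and its log2 ratio of FPKM + 1 was -0.58, within 2-fold. Bsg, which helps lactate carriers reach the cell surface, was at 71.2 FPKM in maturation and 40.4 FPKM in expansion, while the carriers Slc16a1 and Slc16a3 were lower by 1.30-fold and 1.39-fold. Past pyruvate kinase, Pcx, the mitochondrial pyruvate carboxylase, was at 3.16 FPKM in maturation and 0.934 FPKM in expansion (3.38-fold higher). Both Pcx values are low, and the expansion value lies under the 1 FPKM minimum. Pdha1, a subunit of pyruvate dehydrogenase, was at 6.92 FPKM in maturation and 12.8 FPKM in expansion, and its partner Pdhb at 15.7 FPKM in maturation and 13.3 FPKM in expansion. The mitochondrial pyruvate carrier rows Brp44l (Mpc1) and Brp44 (Mpc2) were lower by 1.11-fold and 1.30-fold.

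Several rows of genes known from testis or muscle, though not all, kept a near-constant proportion to a widely used relative. Pgk2, a testis retrogene, equalled 38.9% of Pgk1 in maturation and 39.7% in expansion, although 0% of its 36-base windows matched the Pgk1 transcript within 2 mismatches. Pgam2, the muscle phosphoglycerate mutase, equalled 26.7% of Pgam1 in maturation and 28.2% in expansion, with 0.248% of its windows matching. The actin gene Acta1 equalled 33.1% of Actb in maturation and 33.8% in expansion. Eno3, the muscle enolase, equalled 7.64% of Eno1 in maturation and 6.10% in expansion, and the ratio of muscle-type Pfkm to Pfkl was 4.85 in maturation and 2.63 in expansion. These ratios are values only, and what they come from was not tested.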
